A study of Mus musculus with 8 samples.

Results

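The cornified envelope and keratinocyte differentiation genes described here are 36 non-keratin genes of stratified epithelium, found by gene symbol among the 54532 genes of a read-count table of mouse first molars. All 36 were in the table, and 32 had enough reads to be tested. The genes were proposed with results of the same KO and WT libraries in view, so their KO and WT values are given as a description and their direction supports nothing. Libraries came from 4 Wdr72-/- (KO 1, 3, 4 and 5) and 4 wild-type (WT 2, 3, 4 and 5) samples, all labelled as strain C57BL/6. The age label reads postnatal day 12 and the dissection protocol day 13, for both groups. The Wdr72-/- line lacks WDR72, a WD40-repeat protein needed for enamel maturation, and came from the UC Davis Mouse Biology Center; the design of the allele is not given in the sources used here. Molars were homogenised after the pulp had been taken out, so any epithelium, connective tissue or bone still attached could contribute RNA. Nothing in the labels says whether mice were littermates or whether a library pooled several pups, so any p-value reflects just how far these libraries vary.

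Stratified epithelia such as skin and gum renew from basal cells that stop dividing, move outward and flatten. In the upper layers, transglutaminases crosslink precursor proteins (loricrin, involucrin, filaggrin, small proline-rich proteins and plakins) under the plasma membrane into the cornified envelope. Corneodesmosomes hold the dead cells together until kallikrein proteases, restrained by inhibitors such as the product of Spink5, cut them and let the surface shed. The enamel organ is also an epithelium and shares basal and p63-dependent genes with oral mucosa, but ameloblasts do not cornify.

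Levels are in CPM, the usual depth-scaled read count, computed with edgeR's TMM factors. The libraries held 17084475 to 21887462 counted reads. Wdr72 stood at 102, 37.8, 24.9 and 15.8 CPM in KO 1, 3, 4 and 5, against 173, 245, 327 and 227 CPM in WT 2, 3, 4 and 5. KO 1 thus kept 41.9% of the WT mean; the adjusted p of Wdr72 was 0.080 in edgeR, and a two-sided exact permutation test with 70 arrangements gave p = 0.0286, its smallest possible value. KO 5 correlated least with the remaining libraries, at 0.965 on average, against 0.980 to 0.983 for each of the rest. Xist, the RNA of the inactive X chromosome, was uneven across libraries, at 249, 191, 356 and 177 CPM in KO 1, 3, 4 and 5 and at 803, 839, 251 and 658 CPM in WT 2, 3, 4 and 5. The summed Y-linked level (Ddx3y, Uty, Kdm5d and Eif2s3y) ran from 77.6 to 195 CPM in KO and from 2.82 in WT 3 to 228.5 CPM in WT 4. Libraries thus differed in sex makeup, and WT 4 resembled the KO libraries in Xist. Apart from WT 3, each library held Xist beside a Y-linked level of 61.2 CPM or more. Whether these libraries mixed RNA of both sexes was not tested. Ameloblast markers were at high levels in both groups, with Ambn, which encodes ameloblastin, at 35754 ± 5586 CPM in KO and 38662 ± 12366 CPM in WT (SD, n = 4 each).

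Promoters are shown for 6 of the 36 genes: the 4 with non-overlapping groups (described below) that have an entry among RefSeq promoter sequences, and Sbsn and Dmkn, the chromosome 7 neighbours of Krtdap. Each runs 5′ to 3′ on the gene's strand from 250 bases before to 50 after the RefSeq start, build GRCm38.p6. Capitals mark TGANTCA, the core of the AP-1 element bound by Fos and Jun proteins, and TATAAA, the TATA box core. They lie at chr7:30787655-30787954 (Krtdap, plus strand), chr7:30763506-30763805 (Dmkn, plus), chr7:30751221-30751520 (Sbsn, plus), chr5:43981750-43982049 (Fgfbp1, minus), chr3:92485832-92486131 (Sprr1a, minus) and chr2:130012090-130012389 (Tgm3, plus).
Krtdap: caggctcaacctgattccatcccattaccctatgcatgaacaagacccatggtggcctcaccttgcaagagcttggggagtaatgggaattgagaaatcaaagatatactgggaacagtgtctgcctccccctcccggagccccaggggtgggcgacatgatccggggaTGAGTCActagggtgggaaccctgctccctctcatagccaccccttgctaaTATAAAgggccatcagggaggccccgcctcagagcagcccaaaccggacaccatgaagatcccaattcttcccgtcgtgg
Dmkn: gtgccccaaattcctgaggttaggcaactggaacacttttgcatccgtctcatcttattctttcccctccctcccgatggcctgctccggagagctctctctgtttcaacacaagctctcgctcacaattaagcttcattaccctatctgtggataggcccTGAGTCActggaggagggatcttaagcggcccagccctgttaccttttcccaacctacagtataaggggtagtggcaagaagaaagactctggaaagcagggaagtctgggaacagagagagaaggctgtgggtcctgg
Sbsn: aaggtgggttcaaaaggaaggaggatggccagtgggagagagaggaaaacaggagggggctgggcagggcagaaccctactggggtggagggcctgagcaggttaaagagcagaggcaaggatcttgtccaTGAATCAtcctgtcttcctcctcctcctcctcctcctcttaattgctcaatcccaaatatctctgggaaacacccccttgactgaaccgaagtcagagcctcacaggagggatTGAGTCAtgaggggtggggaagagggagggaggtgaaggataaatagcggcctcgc
Fgfbp1: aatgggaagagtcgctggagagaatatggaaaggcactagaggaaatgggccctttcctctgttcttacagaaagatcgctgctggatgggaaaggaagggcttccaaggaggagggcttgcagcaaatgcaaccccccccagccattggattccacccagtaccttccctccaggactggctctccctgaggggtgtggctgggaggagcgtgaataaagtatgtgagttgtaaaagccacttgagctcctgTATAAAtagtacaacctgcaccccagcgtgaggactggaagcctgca
Sprr1a: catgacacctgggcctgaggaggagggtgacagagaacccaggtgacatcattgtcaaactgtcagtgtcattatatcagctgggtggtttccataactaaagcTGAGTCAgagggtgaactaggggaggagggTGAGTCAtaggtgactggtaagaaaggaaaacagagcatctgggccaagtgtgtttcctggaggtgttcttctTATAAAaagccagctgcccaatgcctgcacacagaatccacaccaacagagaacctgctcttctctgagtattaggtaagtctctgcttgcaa
Tgm3: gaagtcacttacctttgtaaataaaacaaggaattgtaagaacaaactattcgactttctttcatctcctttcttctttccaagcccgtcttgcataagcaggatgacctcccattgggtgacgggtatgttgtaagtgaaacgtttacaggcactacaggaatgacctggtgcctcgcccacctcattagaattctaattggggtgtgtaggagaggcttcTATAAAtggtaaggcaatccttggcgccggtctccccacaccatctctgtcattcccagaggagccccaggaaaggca

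Of the 36 genes, 27 had an entry, with 32 promoters in all. Counting both strands, TGANTCA was found in 11 of these 32 promoters (34.4%), against 7.81% of all 32851 mouse promoters of the same length. TATAAA was found in 9 of 32 (28.1%), against 13.6% of all promoters. AACCNGTT, the core of the grainyhead-like element, was found in 1 of 32, that of Sfn, against 2.09% of all. None of the capitalised stretches shares bases with another. The TGANTCA matches belonged to 9 genes: Krtdap, Dmkn and Sbsn, the differentiation-complex genes Lor, Ivl, Flg, Sprr1a and Sprr1b, and Serpinb5. Krtdap had TGANTCA 81 bases and TATAAA 30 bases before its start, and Dmkn had TGANTCA 89 bases before its start and no TATAAA. The TATAAA of Fgfbp1 lies 3 bases after its RefSeq start, not before it. Such matches are letters in a window and say nothing of binding in these molars.

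The genes differed widely in level, and the abundant ones are also used by other epithelial layers. Per length (CPM per kb of the authors' gene length), the highest was Sfn, the 14-3-3 sigma protein of epithelial cells, at 354 in KO and 310.1 in WT. Next came Anxa8, an annexin, at 234 in KO and 264 in WT. Serpinb5, which encodes maspin, stood at 73.0 in KO and 74.9 in WT, Dmkn at 68.5 in KO and 89.0 in WT, and Trp63, which encodes p63, at 42.6 in KO and 43.8 in WT. The neighbouring levels of Serpinb5 and Dmkn are not separated by their spread between libraries. At the other end, Flg (filaggrin) had 4 reads over all KO and 8 over all WT libraries, and Ivl (involucrin) had 16 and 21. In all, 22 of the 36 genes had a mean under 10 CPM and 8 a mean under 1 CPM, so reads were few for most classical cornification genes.

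**Figure D1:**
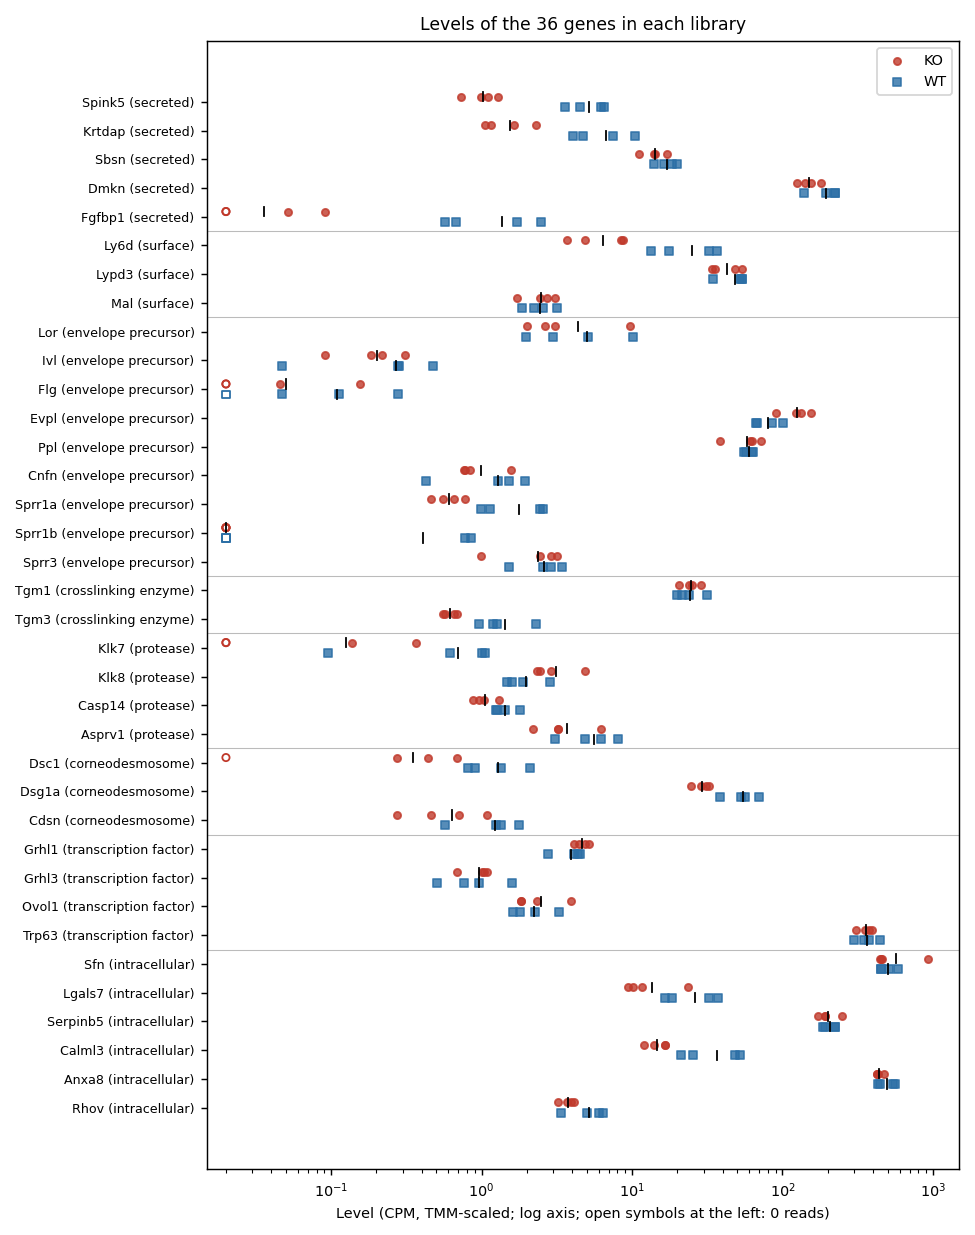
Level of each of the 36 genes in each library, in CPM on a log axis, grouped by role, with KO (red circles) above WT (blue squares) and black ticks at the group means. Open symbols at the left edge are libraries with 0 reads, and the KO points of Spink5, Krtdap and Ly6d lie to the left of all WT points while those of Sfn, Trp63 and Serpinb5 lie among them.

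Among the 32 genes tested, 24 had a log2 fold change (KO minus WT) below 0 and 8 above 0, with a median of -0.33, beside 46.9% below 0 and a median of 0.02 over all 16205 genes tested. In 9 genes every KO library lay below every WT library: Spink5, Krtdap, Fgfbp1, Ly6d, Sprr1a, Tgm3, Dsc1, Dsg1a and Calml3. Over all genes tested 5.44% did so, and 5.5% had every KO library above every WT library, which 0 of the 32 genes did. In bulk RNA, fewer keratinocytes and less RNA per keratinocyte cannot be told apart. By edgeR's quasi-likelihood test with Benjamini-Hochberg adjustment over all genes, 1 of the 32 genes passed 0.05, Spink5, where 0.0309% of all genes passed (0.0185% lower in KO). A log2 fold change below -1 was found for 8 of the 32 and for 0.944% of all genes. DESeq2 called 8 of the 32 (7 lower and 1 higher), where it called 1.04% of all genes lower and 1.83% higher. Limma voom, run with a quality weight for each library, called 13 (12 lower and 1 higher). Of all genes it called 2.28% lower and 4.34% higher (6.62% in all). With no filter on low counts 6 of the 36 passed in edgeR, beside 0.756% of all genes. Spink5 alone passed with RLE size factors (0.0247% of all genes), library totals (0.0123%), a mean of at least 1 CPM (0.0343%) and without the pair KO 1 and KO 5 (0.0649%), and none of the 32 with a replicate block (0.00617%). The number also moved with the libraries, from 0 without KO 3, KO 4, WT 2 or WT 3 (where 0 of all genes passed) to 6 without WT 4 (0.0971% of all genes). It was 3 without KO 5 (0.333% of all genes), and 1 without KO 1 or WT 5 (0.0304% in either case). With the log2 Xist level as a covariate, an alternative chosen after seeing the data, 0 of the 32 passed in edgeR (0.00617% of all genes), the median log2 fold change was -0.02 and 17 of the 32 were below 0. In that fit Wdr72, the targeted gene, did not pass either (log2 fold change -2.70, adjusted p = 0.95 in edgeR). Sex makeup and genotype could not be fully told apart in these libraries.

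**Figure D2:**
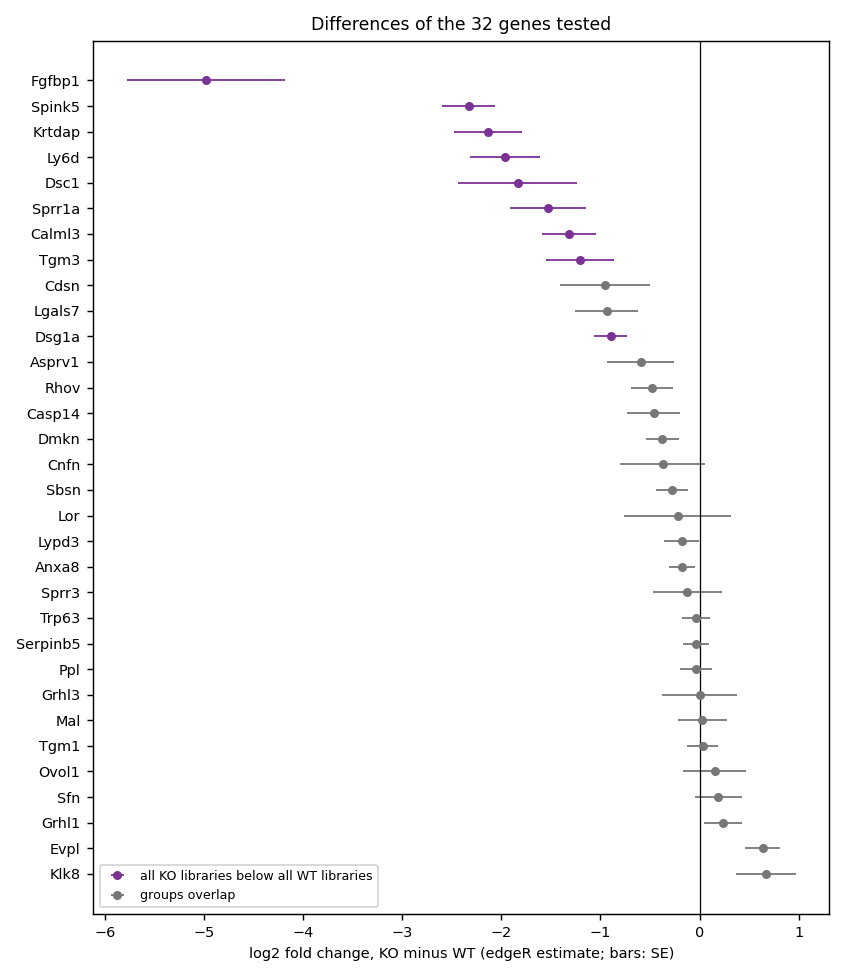
The log2 fold change (KO minus WT) of the 32 genes tested, ordered by size, with bars of 1 SE from edgeR. Purple points are the 9 genes whose KO libraries all lay below all WT libraries, from -4.98 for Fgfbp1 to -0.89 for Dsg1a; the largest positive estimates, of Klk8 (0.67) and Evpl (0.64), come from groups that overlap.

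The secreted proteins held the steepest differences. Spink5 encodes LEKTI, the inhibitor of epidermal kallikreins, and lies on chromosome 18 from 43963235 to 44022501 (GRCm38). It had 0.984, 1.10, 1.29 and 0.728 CPM in KO 1, 3, 4 and 5, against 4.48, 6.20, 3.61 and 6.56 CPM in WT 2, 3, 4 and 5. The highest KO library thus lay below the lowest WT library, WT 4. Spink5 fell in KO to 19.7% of the WT mean (log2 fold change -2.33, SE 0.27, adjusted p = 0.027 in edgeR). Without KO 3, KO 4, WT 2 or WT 3 its adjusted p in edgeR was 0.073, 0.091, 0.087 and 0.083, and with the Xist covariate its log2 fold change was -1.79 (adjusted p = 0.57).

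Krtdap, Dmkn and Sbsn are secreted proteins of the suprabasal layers whose genes follow each other on the plus strand of chromosome 7, from 30751471 to 30791097, a stretch of 39.6 kb with no other protein-coding gene. Krtdap had 1.64, 1.06, 1.15 and 2.29 CPM in KO 1, 3, 4 and 5, against 10.5, 7.49, 4.08 and 4.75 CPM in WT 2, 3, 4 and 5. Dmkn, which encodes dermokine, had 142, 125, 154 and 180.4 CPM in KO, against 223, 224, 139 and 195 CPM in WT. Sbsn, which encodes suprabasin, had 14.1, 11.1, 14.3 and 17.1 CPM in KO, against 18.3, 19.998, 13.9 and 16.4 CPM in WT. The groups were apart in Krtdap and overlapped in Dmkn and Sbsn. Log2 fold changes were -2.13 (SE 0.34) for Krtdap, -0.38 (SE 0.17) for Dmkn and -0.28 (SE 0.16) for Sbsn, and the differences among these were not tested, since all come from the contrast known when the genes were proposed. As a share of Dmkn in the same library, Krtdap was at 0.748% to 1.27% in KO and 2.44% to 4.72% in WT. Sbsn was at 8.89% to 9.92% of Dmkn in KO and 8.23% to 10.02% in WT, so that the ratio of Sbsn to Dmkn covered nearly the same range in both groups. Like the promoter of Krtdap, those of both neighbours hold TGANTCA, and that of Krtdap alone among them holds TATAAA.

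**Figure D3:**
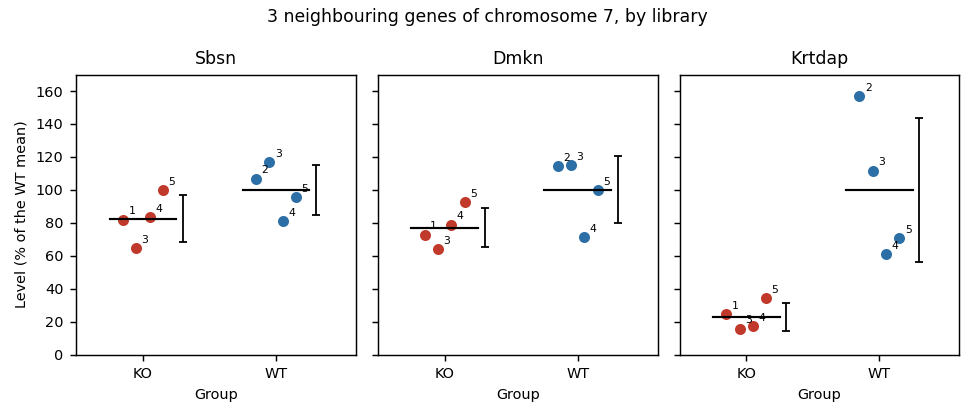
Levels of Sbsn, Dmkn and Krtdap by library, as % of the WT mean, with KO left of WT, replicate numbers beside the points, lines at the means and bars of 1 SD (n = 4 each). Krtdap lies at 15.7% to 34.1% in KO and at 60.8% to 157% in WT, whereas the KO and WT points of Sbsn and Dmkn overlap.

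Fgfbp1, a secreted carrier that releases fibroblast growth factors from the matrix, was close to absent in KO. It had 0, 2, 0 and 1 reads in KO 1, 3, 4 and 5, and 45, 36, 12 and 12 reads in WT 2, 3, 4 and 5. The depth-corrected ratio of the summed reads was 2.74% of WT (exact 95% interval 0.557% to 8.24%, for counting error only). It is named for its values, as are Calml3, Sprr1a and Sprr1b below, and WT 4 and WT 5 had the fewest of its WT reads.

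At the cell surface, Ly6d, a GPI-anchored protein of the Ly6 family, had 8.75, 3.67, 4.83 and 8.47 CPM in KO 1, 3, 4 and 5, against 36.5, 32.5, 13.3 and 17.7 CPM in WT 2, 3, 4 and 5. Its log2 fold change was -1.96 (SE 0.35), and the 4 KO libraries lay below WT 4, the lowest WT library. Lypd3, another GPI-anchored member of the Ly6 superfamily, gave 48.3, 34.3, 35.4 and 53.9 CPM in KO, against 52.3, 54.2, 34.7 and 53.7 CPM in WT. Mal, a raft protein of apical transport, had 2.73, 2.43, 3.08 and 1.72 CPM in KO, against 2.21, 2.58, 1.85 and 3.16 CPM in WT. In both of these genes the groups overlapped throughout.

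Of the 6 envelope precursors tested 5 had a log2 fold change below 0, as had 46.9% of all genes. The groups did not overlap in 1, Sprr1a, and 5.44% of all genes had every KO library below every WT library. Loricrin, the main envelope protein of cornified epidermis (Lor, chromosome 3 from 92080271 to 92083142), had 2.63, 2.02, 3.08 and 9.72 CPM in KO 1, 3, 4 and 5, against 5.09, 10.1, 2.99 and 1.98 CPM in WT 2, 3, 4 and 5. KO 5 and WT 3 were the high libraries, and the log2 fold change of -0.22 (SE 0.54) turned to 0.38 without WT 3 and to -0.98 without KO 5. Evpl and Ppl encode envoplakin and periplakin, the plakins on which the envelope is first laid down. Evpl had 90.5, 132, 124 and 155 CPM in KO, against 67.8, 85.7, 101 and 67.1 CPM in WT, and KO 1 overlapped WT 4 (log2 fold change 0.64, SE 0.18). DESeq2 and limma voom called Evpl higher, and edgeR did not (adjusted p = 0.16). Ppl had 63.0, 71.5, 61.0 and 38.7 CPM in KO, against 63.9, 62.5, 55.8 and 57.4 CPM in WT.

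The small proline-rich proteins, which bridge the envelope's larger chains, differed from one another. Sprr1a had 0.656, 0.459, 0.552 and 0.780 CPM in KO 1, 3, 4 and 5, against 2.44, 1.15, 0.997 and 2.54 CPM in WT 2, 3, 4 and 5 (log2 fold change -1.53, SE 0.39). Its paralog Sprr1b had 0 reads in each KO library, and 14, 0, 0 and 15 reads in WT 2, 3, 4 and 5. With 3 KO reads as the limit that a count of 0 allows, the depth-corrected sum of Sprr1b would be 10.1-fold lower in KO. This figure takes the WT reads as fixed, and the exact 95% interval for counting error allowed a smaller difference. WT 3 and WT 4 had 0 reads as well, so the groups overlapped and no minimum difference between them follows. All Sprr1b reads came from WT 2 and WT 5, the libraries with the highest Sprr1a. Reads of such paralogs can be split in counting, so both counts are uncertain. Sprr3 was at 2.37 ± 0.974 CPM in KO and 2.59 ± 0.806 CPM in WT, and Cnfn (cornifelin) at 0.986 ± 0.387 CPM in KO and 1.29 ± 0.638 CPM in WT. Ivl and Flg were too low to test, and their depth-corrected ratios of KO to WT had exact 95% intervals of 35.7% to 147% and of 10.6% to 179%.

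Of the envelope's crosslinking enzymes, Tgm1, the membrane-bound transglutaminase of keratinocytes, had 24.0, 20.6, 29.0 and 25.1 CPM in KO 1, 3, 4 and 5, against 23.8, 21.5, 19.9 and 31.3 CPM in WT 2, 3, 4 and 5. Tgm3, the soluble transglutaminase of the upper layers, had 0.656, 0.688, 0.552 and 0.572 CPM in KO, against 1.27, 2.29, 1.19 and 0.961 CPM in WT. The KO values of Tgm3 lay below all WT values (log2 fold change -1.21, SE 0.34), while those of Tgm1, the enzyme with the higher level, were spread among them.

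None of the proteases tested had groups apart, and few of all genes did (5.44% with KO below WT, 5.5% with KO above). Asprv1, the protease that trims profilaggrin, had 3.23, 3.21, 2.21 and 6.19 CPM in KO 1, 3, 4 and 5, against 6.26, 8.11, 3.09 and 4.86 CPM in WT 2, 3, 4 and 5. Klk8, a kallikrein of the upper epidermis, had 2.35, 2.43, 2.90 and 4.89 CPM in KO, against 1.61, 2.86, 1.90 and 1.47 CPM in WT (log2 fold change 0.67, SE 0.30). Casp14, the caspase of cornifying cells, had 1.31, 0.964, 0.875 and 1.04 CPM in KO, against 1.27, 1.81, 1.42 and 1.24 CPM in WT, and KO 1 lay above WT 2 and WT 5. Klk7, a chymotrypsin-like kallikrein that LEKTI inhibits, was below the filter with 0, 3, 8 and 0 reads in KO and 19, 21, 2 and 11 reads in WT. Its depth-corrected ratio was 19.9% of WT (exact 95% interval 9.38% to 38.6%), and KO 3 and KO 4 lay above WT 4. Klk7 and Klk8 lie within 18.8 kb on chromosome 7, and their KO and WT values differed in opposite directions.

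The corneodesmosome genes were all lower on average in KO, beside 46.9% of all genes with a log2 fold change below 0. Dsg1a, a desmoglein of the differentiated layers, had 28.9, 30.8, 32.5 and 24.7 CPM in KO 1, 3, 4 and 5, against 52.8, 56.3, 38.5 and 70.2 CPM in WT 2, 3, 4 and 5. The KO libraries lay close together and below all WT libraries (log2 fold change -0.89, SE 0.17). Its close paralog Dsg1b was at 28.8 ± 8.76 CPM in KO and 42.5 ± 5.92 CPM in WT, with overlapping groups. How reads were split between these paralogs in counting is uncertain. Dsc1, a desmocollin of the same layers, had 0.438, 0.688, 0.276 and 0 CPM in KO, against 2.10, 1.34, 0.807 and 0.904 CPM in WT. Cdsn, which encodes corneodesmosin, had 0.711, 0.275, 0.460 and 1.09 CPM in KO, against 1.77, 1.34, 0.570 and 1.24 CPM in WT, and its groups overlapped through WT 4.

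In all 4 transcription factors of the programme the groups overlapped, as in most genes (5.44% of all had KO below WT, 5.5% KO above). Trp63, the master regulator of stratified epithelia, had 375, 393, 356 and 307 CPM in KO 1, 3, 4 and 5, against 301, 349, 442 and 377 CPM in WT 2, 3, 4 and 5. Its log2 fold change of -0.04 (SE 0.14) turned positive in some alternatives, up to 0.08 with limma voom. Grhl1, a grainyhead-like factor of desmosomal genes, had 5.20, 4.45, 4.83 and 4.11 CPM in KO, against 2.77, 4.10, 4.37 and 4.52 CPM in WT. Ovol1, a zinc-finger repressor that acts as cells leave the basal layer, had 3.94, 2.34, 1.84 and 1.82 CPM in KO, against 3.27, 1.81, 1.61 and 2.26 CPM in WT. An overlapping gene held 30.4% as many reads, so the count of Ovol1 is uncertain. Grhl3, which activates Tgm1 in mouse epidermis, was at 0.958 ± 0.183 CPM in KO and 0.957 ± 0.469 CPM in WT.

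Of the 6 remaining intracellular proteins 1, Calml3, had groups apart, beside 5.44% of all genes with KO below WT and 5.5% with KO above. Sfn had 446, 456, 451 and 931 CPM in KO 1, 3, 4 and 5, against 513, 583, 453 and 451 CPM in WT 2, 3, 4 and 5. Apart from KO 5 its libraries were close together, and its log2 fold change of 0.19 turned to -0.15 without KO 5. Anxa8 had 476, 432, 425 and 425 CPM in KO, against 542, 563, 432 and 446 CPM in WT, and Serpinb5 had 172, 192, 192 and 247 CPM in KO, against 222, 223, 192 and 187 CPM in WT. Calml3, a calmodulin-like protein of keratinocytes, had 16.6, 13.9, 11.97 and 16.6 CPM in KO, against 52.3, 48.5, 21.0 and 25.3 CPM in WT. Its groups did not overlap (log2 fold change -1.32, SE 0.27). Lgals7, the galectin of stratified epithelia, was at 13.7 ± 6.54 CPM in KO and 26.2 ± 10.1 CPM in WT, overlapping through KO 5, and Rhov, a small GTPase, at 3.74 ± 0.386 CPM in KO and 5.21 ± 1.36 CPM in WT.

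Within the WT group WT 4 was often low. It was the lowest WT library for 20 of the 32 genes tested and for 8 of the 9 with non-overlapping groups, while it was the lowest for 27.0% of all genes tested; WT 5 was the lowest for 10 of the 32. WT 2 and WT 3 were the highest for 12 of the 32 each, against 23.4% and 21.8% of all genes. Among KO libraries KO 5 was the highest for 16 of the 32, against 38.3% of all genes. The summed level of the 9 non-overlapping genes, which were picked for their values, was 58.6, 52.5, 53.1 and 54.2 CPM in KO 1, 3, 4 and 5, against 165, 157, 84.0 and 129.6 CPM in WT 2, 3, 4 and 5. KO libraries were thus more alike than WT libraries in this sum, a pattern that the choice of genes can favour. Over all 36 genes the sum was 1948, 1958, 1933 and 2498 CPM in KO 1, 3, 4 and 5. It was 2268, 2422, 2012 and 2059 CPM in WT 2, 3, 4 and 5, so KO libraries were not more alike there. KO 1, 3 and 4 lay close together in this sum and KO 5 lay apart. Abundant genes dominate it, and Sfn alone was at 931 CPM in KO 5, against 446, 456 and 451 CPM in KO 1, 3 and 4.

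Keratins of differentiated oral and epidermal cells mark the same cell layers, and their part in the differences above was not tested. Of the 10 keratins listed, 9 were tested and all 9 had a log2 fold change below 0 (median -1.05, against 0.02 over all genes). By edgeR's quasi-likelihood test 1 passed, Krt1, a keratin of the spinous layer (log2 fold change -2.64, adjusted p = 0.040), and 8 were lower at an unadjusted p of 0.05, which 6.98% of all genes were. Their summed level was 661, 559, 599 and 843 CPM in KO 1, 3, 4 and 5, against 1369, 1329, 709 and 1131 CPM in WT 2, 3, 4 and 5, so KO 5 overlapped WT 4. Krt6b, a keratin of oral mucosa, had its lowest WT value in WT 4, at 46.0 CPM, beside 33.8 to 42.9 CPM in KO. Krt1, Krt4 and Krt13, in contrast, had their highest WT values in WT 4, at 18.9, 50.1 and 67.1 CPM. None of the 10 was at 0 in all libraries, and Krt2, an epidermal keratin, had reads in KO 1 and WT 5 alone.

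**Figure D4:**
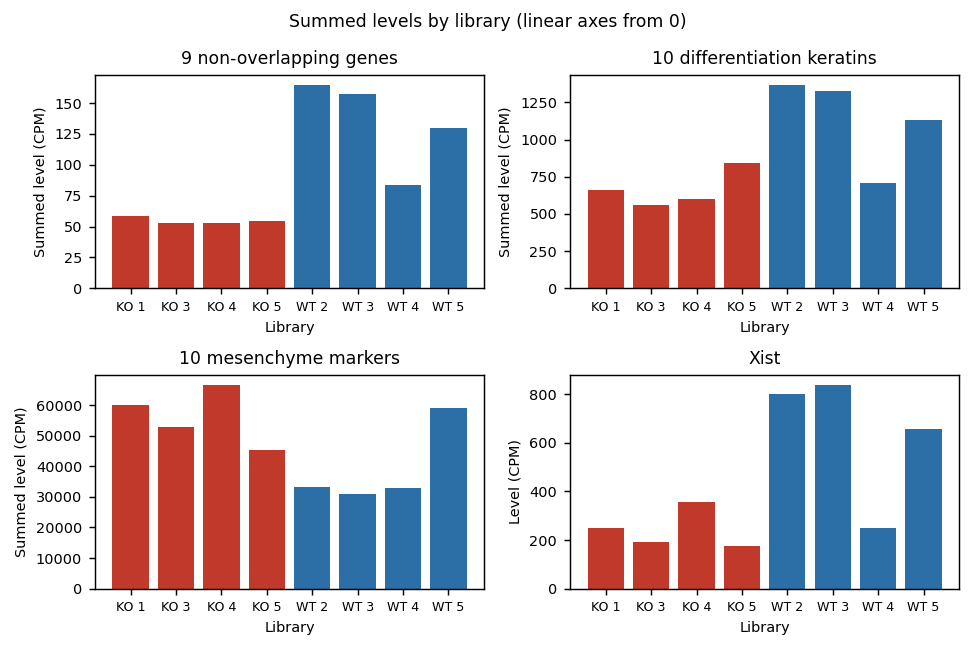
Summed CPM per library (linear axes from 0, KO red and left, WT blue and right) of the 9 genes with non-overlapping groups, of 10 differentiation keratins and of 10 mesenchyme markers, and the CPM of Xist. WT 4 is the lowest WT library for the 9 genes, the keratins and Xist, and WT 5 lies among the KO libraries in the mesenchyme panel.

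Markers of other tissues differed in level as well, and their part in these differences was not tested. All 10 mesenchyme markers had a log2 fold change above 0 (median 0.51; edgeR called 0, and 6 were higher at an unadjusted p under 0.05, as were 8.7% of all genes). Their summed level was 60153, 52912, 66665 and 45319 CPM in KO 1, 3, 4 and 5, against 33256, 30832, 32949 and 59034 CPM in WT 2, 3, 4 and 5, so WT 5 lay among the KO libraries. Leukocyte markers summed to 184 to 246 CPM in KO and 151 to 189 CPM in WT, and 6 of the 7 tested were above 0. Basal and simple epithelial genes, among them Krt5 and Krt14 of the basal layer, had a median log2 fold change of -0.01 over 11 genes, with Krt5 at 5974 ± 1145 CPM in KO and 6510.0 ± 991 CPM in WT. Ameloblast markers had a median of 0.04 over 9 genes, odontoblast and bone markers 0.20 over 6, muscle markers 0.31 over 6, and epidermis and hair markers -0.15 over the 4 tested of 10. No marker in these lists was at 0 in all 8 libraries.

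Further genes of cornification, taken from 6 lists that left out the 36 genes, had 122 tested members, 74 below 0 and 48 above 0. By edgeR 0 passed in either direction (16 lower and 6 higher at an unadjusted p of 0.05, a level that 15.7% of all genes reached). DESeq2 called 9 (7 lower), where it called 2.86% of all genes (1.04% lower). Limma voom called 13 (9 lower), where it called 6.62% of all genes (2.28% lower). In 9 of the 122 every KO library lay below every WT library, beside 5.44% of all genes. In 5 every KO library lay above every WT library, beside 5.5%. Other envelope and differentiation-complex proteins had a median log2 fold change of -0.28 over 13 tested of 48, and 10 of them had no read, 9 of these Sprr2 genes, whose near-identical copies make a count of 0 uncertain. Medians were -0.05 for 21 barrier lipid genes, -0.08 for 15 proteases and inhibitors of shedding, -0.22 for 17 other desmosome and junction genes, -0.01 for 32 other transcription factors and -0.15 for 24 other secreted and surface proteins. The most abundant in each list included Cstb (cystatin B) at 71.6 CPM in KO and 62.6 CPM in WT, Smpd1 (acid sphingomyelinase) at 183 in KO and 169 in WT, and Ctsl (cathepsin L) at 521 in KO and 549 in WT. Dsp, which encodes desmoplakin, was at 941 CPM in KO and 1064 CPM in WT, Maf at 341 in KO and 323 in WT, and Anxa2 at 638 in KO and 621 in WT, and none of these 6 passed in edgeR.

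Among the genes that both DESeq2 and limma voom called lower, named after their values were seen, were inhibitors and proteases of low level. Serpinb2, an inhibitor of urokinase, had 1.09, 0.551, 1.33 and 0.884 CPM in KO 1, 3, 4 and 5, against 5.09, 4.77, 2.09 and 1.86 CPM in WT 2, 3, 4 and 5. Serpinb3a was at 1.17 ± 0.298 CPM in KO and 2.96 ± 0.711 CPM in WT, and Tmprss11d, a serine protease of mucosal epithelia, at 0.479 ± 0.156 CPM in KO and 1.94 ± 0.986 CPM in WT. Aqp3, the water and glycerol channel of basal keratinocytes, had 6.18, 4.31, 5.71 and 5.25 CPM in KO, against 15.6, 15.4, 7.03 and 14.6 CPM in WT. Calm4, a calmodulin-like protein of mouse skin, was at 4.14 ± 1.84 CPM in KO and 11.3 ± 2.78 CPM in WT, and Cers3, the ceramide synthase of the barrier, at 6.57 ± 0.857 CPM in KO and 9.94 ± 0.758 CPM in WT. In each of these 6 genes all KO libraries lay below all WT libraries, as in 9 of the 122 tested and 5.44% of all genes.

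By position, 8 of the 36 genes lay on chromosome 7 and 6 on chromosome 3, within the epidermal differentiation complex. From Lor to Flg this stretch (chromosome 3, 92080271 to 93293686, 1213 kb) held 52 protein-coding genes, of which 46 are not among the 36. Of these 46, 12 had no read and 4 had enough to be tested, 2 of them below 0. The other 22 genes lay on 15 chromosomes, with Spink5, Dsc1 and Dsg1a on chromosome 18.

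**Figure D5:**
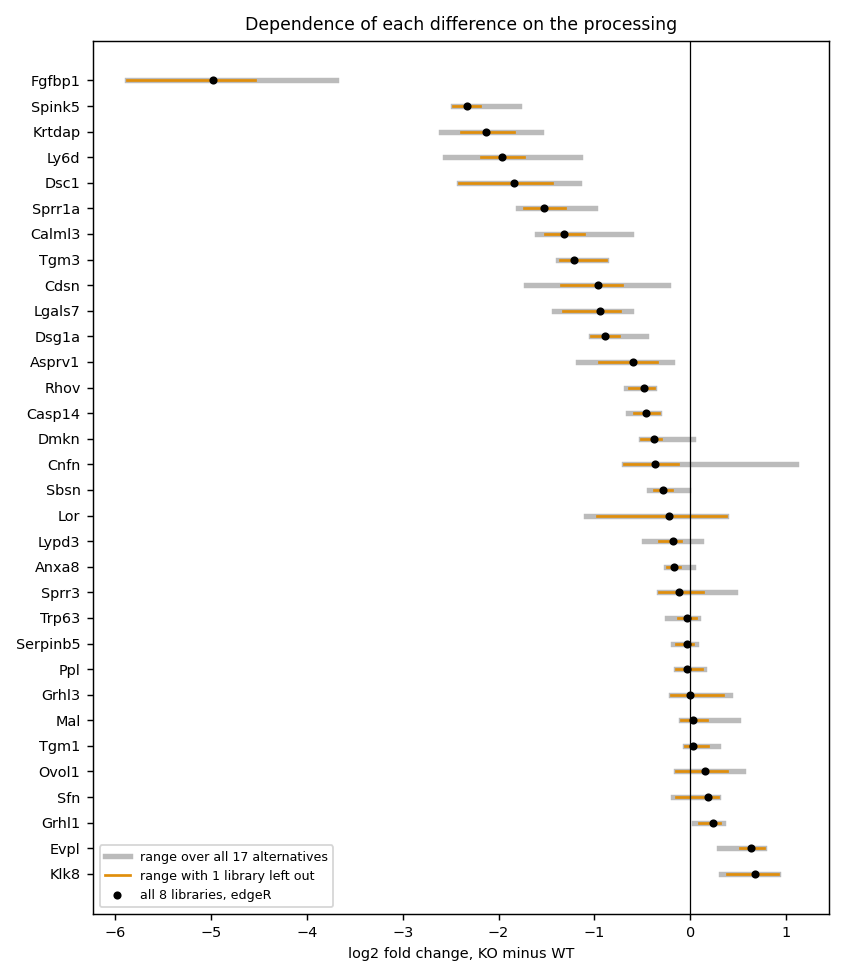
The log2 fold change (KO minus WT) of each of the 32 genes tested with all 8 libraries in edgeR (black), its range with 1 library left out (orange) and its range over all 17 alternatives (grey). The grey ranges of 14 genes, among them Lor, Sfn and Trp63, cross 0; those of the 9 non-overlapping genes do not, which their choice for separate groups largely fixes.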

How the data were processed

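The authors deposited 1 table of raw read counts per Ensembl gene in 8 libraries, with gene lengths in bases under a column of another kind. Libraries followed polyA capture, per the labels' protocols. CASAVA and mm39 are named, per the submitters' processing notes. Not given in the sources used here: aligner, counter and strandedness. Deposited gene starts are those of GRCm38 (98.8% of 54409 shared gene IDs had the GENCODE M21 start), so that build is given.

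KO was compared with WT by edgeR 4.0.16 (quasi-likelihood, robust, two-sided, no covariate; R 4.3.3) on the counts, after filterByExpr (minimum count 10, total 15) left 16205 genes, and TMM scaling; SE is the size of the log2 fold change over the square root of F. The threshold was an adjusted p of 0.05 over all genes. In a test on simulated data from these libraries (15875 genes), 69.4% of genes changed by a log2 of 1 and 98.1% of those changed by 2 were called. The simulated counts were drawn with edgeR's own fitted dispersions and no outlying library, so the shares presuppose the model that made the calls. Whether these shares hold for the deposited counts was not tested. In the deposited counts Spink5 (log2 fold change -2.33) was past the threshold. Krtdap (-2.13), Fgfbp1 (-4.98) and Wdr72 (-2.43) were not. The biological coefficient of variation was 17.8%. Alternatives used DESeq2 1.42.0, limma 3.58.1 voom with a quality weight for each library, other scalings, filters, a block and left-out libraries.

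The 36 genes and all lists were chosen with earlier results of these data known. Values in every library are given for genes past the threshold and the 3 of each role with the highest mean CPM; of each further list, up to 4 with the highest mean CPM were eligible to be named. Counting intervals, also for 0 reads, cover counting error only. Libraries of a group differed beyond sampling noise, so each counted as 1 sample. RefSeq promoters were read on the gene's strand, which was checked against GENCODE transcripts.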

Additional observations from a re-analysis of the deposited data

Results flagged for a closer look

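In 6 of 64 groups of 4 libraries (32 genes, KO and WT), 1 library lay far from the other 3 relative to the range of its group; chance gives about 1 in 20, or 3.2 groups. KO 5 was the high library in 3 of them: Sfn at 931 CPM, Lor at 9.72 CPM and Lgals7 at 23.4 CPM. Cnfn was high in KO 4 at 1.57 CPM, and Anxa8 in KO 1 at 476 CPM. Lypd3 was low in WT 4 at 34.7 CPM, within the KO range of 34.3 to 53.9 CPM.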

How the results depend on the processing

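The median log2 fold change of the 32 genes was -0.33 and ran from -0.23 to -0.45 with 1 library left out; with the Xist covariate, chosen after seeing the data, it was -0.017, and 0 genes passed. The number of the genes past the threshold was 1, beside 0.0309% of all genes. It was 8 with DESeq2 (2.86% of all genes), 13 with limma voom (6.62%) and 6 with no filter on low counts (36 tested, 0.756%). With 1 library left out it was 0 to 6 (0% to 0.333%). Of the further cornification genes 0 passed. Beside the same shares of all genes, 9 did with DESeq2, 13 with limma voom and 6 with no filter. It was 1 without the pair KO 1 and KO 5 (0.0649%) and 0 to 1 with 1 library left out. Wdr72 had a log2 fold change of -2.43 (not past 0.05). It passed with DESeq2 (-2.44), limma voom (-2.62), the replicate block (-3.42) and without KO 1 (-3.21). With 1 library left out it ran from -3.21 to -2.15. With the Xist covariate it was -2.70 and not past the threshold (adjusted p = 0.95 in edgeR). The cause of these shifts was not tested. Replicate numbers 3, 4 and 5 occur in both groups, but same-numbered libraries did not deviate together (correlations of -0.14, -0.092 and -0.12). That gave no sign of pairing by number but cannot exclude it. With the replicate block 0 of the 32 genes tested passed and 1 gene of all. Of 540 recomputed fold changes of single genes, 522 moved by less than 1 SD between replicates. The alternatives reuse most or all of the same libraries, which largely fixes this count in advance. Signs changed for 14 genes under some alternative, 3 of them under the Xist covariate alone. Genes under 1 CPM rest on few reads, so differences in them were hard to detect at this depth.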

Other observations

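A few genes of the further lists were higher in KO, with no call in edgeR. Named after their values were seen, Cldn4, a tight junction claudin, was at 8.45 ± 3.96 CPM in KO and 3.35 ± 0.938 CPM in WT (SD, n = 4 each), and Muc1, an apical mucin, at 3.12 ± 0.604 CPM in KO and 1.30 ± 0.465 CPM in WT. DESeq2 and limma voom called both. Elovl4, which elongates very long fatty acids, was at 7.46 ± 0.834 CPM in KO and 5.12 ± 0.654 CPM in WT, and limma voom called it. In all 3 genes every KO library lay above every WT library, as in 5 of the 122 tested and 5.5% of all genes.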
